A study of Mus musculus with 7 samples.

Results

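Aggrecan, versican, hyaluronan and the proteins that join them make up much of the matrix of the nucleus pulposus, the soft centre of the disc between vertebrae. The genes described here are 10 grouped under the name of this network. They include the core proteins of aggrecan (Acan) and versican (Vcan) and the link proteins Hapln1 and Hapln3. The hyaluronan synthases Has1, Has2 and Has3 and the hyaluronan receptor Cd44 are also included. The lubricant proteoglycan Prg4 and Snorc, a small membrane proteoglycan of cartilage, are listed with them. Being listed does not make Prg4 or Snorc a part of the aggregate of aggrecan and hyaluronan. The 10 genes were taken by name from the array annotation, and all were found, each as 1 array feature, among 19505 genes. RNA came from the nucleus pulposus of 4 wild-type mice (WT), each aged 13 months, and 3 mice that lack the lactate exporter MCT4 throughout the body (MCT4KO), each aged 14 months, and was measured on Affymetrix arrays. Lumbar and tail discs of an animal were combined, and each array is a separate animal. The breeding scheme yields littermates of heterozygous parents. With ages of 13 and 14 months, the WT and MCT4KO animals on these arrays are not shown to be littermates of each other. The strain is named C57BL/6 for every animal in the sample labels, and the design text gives C57Bl/6N for the knockouts. Age and genotype cannot be told apart, and no source used here states the animals' sex.

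In the disc, many aggrecan molecules bind along a strand of hyaluronan through their N-terminal domain, and a link protein locks each of them in place. The sulfated chains of aggrecan draw in water, and the resulting swelling pressure lets the disc bear load. Versican uses the same hyaluronan and link protein contacts but carries fewer chains and is a component of softer, cell-rich and fibrous matrix. Hyaluronan itself is spun out by synthases in the cell membrane, and CD44 tethers it to the cell surface. Lubricin, the product of Prg4, coats the surface of joints and tendons.

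Of the 10 genes, 1 was called in MCT4KO. The genes were chosen with earlier results of these data known, so this count is not a test of the group against all genes. Snorc was lower by 1.53 ± 0.227 (SE) on the log2 scale, or 2.88-fold, with a 95% interval of 2.03-fold to 4.10-fold (limma adjusted p = 0.026, n = 4 and 3). Aggrecan, link proteins, synthases, Cd44, Vcan and Prg4 did not pass the test. Vcan and Prg4 spanned 4.40 and 4.87 log2 units within the MCT4KO group, both highest in MCT4KO 1 and lowest in MCT4KO 3. Over all 19505 genes 0.59% were called (adjusted p under 0.05): 0.472% (92 genes) lower and 0.118% (23) higher in MCT4KO, or 53 lower and 26 higher after quantile normalization. At an unadjusted p under 0.05, Snorc was lower and Cd44 higher, 2 of 10, beside 12.7% of all genes (6.9% lower and 5.76% higher). All values are log2 on the scale that was deposited, and a feature covers all isoforms of its gene, so that splice forms of Vcan and Cd44 were not resolved.

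**Figure D1:**
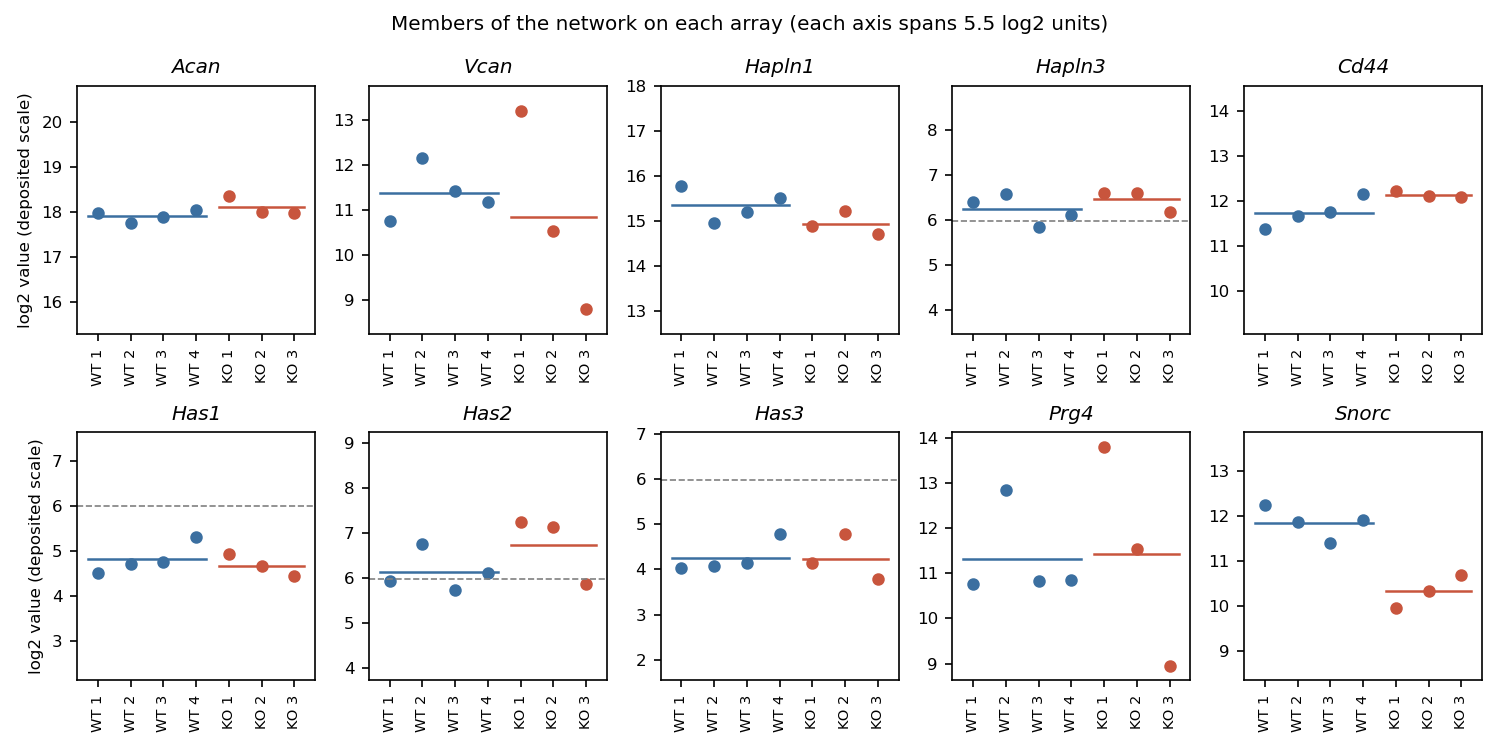
The log2 value of each of the 10 genes (vertical axis) on each array (horizontal axis), with WT animals in blue and MCT4KO animals (KO) in red, group means as solid lines and the median of negative control features, 5.99, as a dashed line where it falls within the axis. Snorc is the panel in which the groups lie apart, Vcan and Prg4 are high in MCT4KO 1 and low in MCT4KO 3, and Has1 and Has3 lie below the dashed line on every array.

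The array medians over all genes ran from 6.46 to 6.51, and no array pair was identical. Slc16a3, which encodes MCT4, read 13.35 to 13.61 in WT and 4.47 to 5.02 in MCT4KO, below each knockout array's control median (limma adjusted p = 6.7e-09), as the genotype labels state. Background was read from 5222 negative control features, whose median was 5.99 overall and between 5.91 and 6.08 on single arrays. Markers of nucleus pulposus cells were present: the keratin genes Krt8 (16.52 to 17.09) and Krt19 (17.00 to 17.32) and the carbonic anhydrase gene Car3 (19.25 to 19.41) read high on every array, and 7 of 9 measured markers were above the control median on all arrays. The mean of 9 neutrophil and marrow markers ran from 6.19 to 10.36 over the WT animals, against 5.18 to 5.91 over the knockouts, with WT 2 highest and WT 1, at 8.02, next.

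Acan, the aggrecan core protein, read 17.98, 17.75, 17.88 and 18.05 in WT 1 to 4, against 18.35, 18.00 and 17.97 in MCT4KO 1 to 3. MCT4KO 1 was the highest animal, and the groups overlapped. The means were 17.92 ± 0.131 (SD, n = 4) and 18.11 ± 0.208 (SD, n = 3), a difference of 0.19 ± 0.147 (SE; limma adjusted p = 0.61). Its 95% interval, -0.14 to 0.52, spans 0.908-fold to 1.43-fold. Every Acan value lay above the 99.8th percentile of negative controls, near the top of the scale, where the highest value of all was 19.41. Whether differences are compressed at such high signals was not tested.

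Vcan, the versican core protein, read 10.76, 12.15, 11.43 and 11.18 in WT 1 to 4. In MCT4KO 1 to 3 it read 13.21, 10.55 and 8.81, so that 1 knockout lay above every WT animal and the other 2 below all of them. The means were 11.38 ± 0.584 (SD, n = 4) and 10.86 ± 2.22 (SD, n = 3), and the difference of -0.52 ± 0.818 did not pass (limma adjusted p = 0.83; 95% interval -2.36 to 1.31). It was 0.50 without MCT4KO 3 and -1.70 without MCT4KO 1 (adjusted p = 0.78 and 0.31, within a range of 0.31 to 0.93 over 18 alternatives). The within-group SD was 1.47, and 0.246% of all genes had a larger one. The Acan within-group SD was 0.166, which 72.5% of genes exceeded. Acan read near the top of the scale and Vcan well below it, so these SDs come from different parts of the scale.

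The log2 ratio of Vcan to Acan on the same array was higher in MCT4KO 1 (-5.14) than in any WT animal (-7.22 to -5.60), and lower in MCT4KO 2 (-7.45) and MCT4KO 3 (-9.17). Its group means differed by -0.71 (exact permutation test over the 35 splits of the animals, two-sided p = 0.54, adjusted p = 0.54 over the 2 ratios tested), and by 0.24 without MCT4KO 3 (exact permutation p = 0.87). The smallest p that 35 splits allow is 0.0286. The zero point of this ratio depends on both features and has no meaning of its own.

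Hapln1, the link protein that stabilises aggrecan on hyaluronan in cartilage and disc, read 15.79, 14.96, 15.22 and 15.52 in WT 1 to 4, against 14.89, 15.23 and 14.72 in MCT4KO 1 to 3. MCT4KO 1 and MCT4KO 3 lay below every WT animal, while MCT4KO 2 lay above WT 2 and WT 3. The difference was -0.42 ± 0.212 (limma adjusted p = 0.45; 95% interval -0.90 to 0.05), and it was below 0 in every fit that left out 1 animal (-0.56 to -0.28). Hapln3, a link protein of wider tissue distribution, read 5.86 to 6.59 in WT and 6.19 to 6.61 in MCT4KO, at the 46.8th to 62.8th percentile of the negative controls, and so close to background that its difference of 0.22 ± 0.198 (limma adjusted p = 0.68) gives no size of change. The ratio of Hapln3 to Hapln1, the other of the 2 ratios tested, is not given for the same reason.

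In the RefSeq gene table of GRCm38.p6 each lectican gene here has a link protein gene next to it in the order of protein-coding genes: Hapln3 beside Acan on chromosome 7, and Hapln1 beside Vcan on chromosome 13. Vcan spanned 4.40 log2 units over the 7 arrays and its neighbour Hapln1 1.06, and in MCT4KO 1 Vcan was at its highest while Hapln1 lay below every WT animal. The promoters of these 4 genes are shown because the genes pair by position while their values differ in spread, and each run holds the 250 bases before the RefSeq start on the gene's own strand, GRCm38.p6, at chr7:79052976-79053225 (plus strand) for Acan, chr7:79131019-79131268 (minus) for Hapln3, chr13:89742513-89742762 (minus) for Vcan and chr13:89540386-89540635 (plus) for Hapln1. Capitals mark matches on either strand to the box motif TATAAA, the GC box motif GGGCGG, the SOX core motif AACAAT, the HIF core motif ACGTG and the motif CCAAT.
Acan: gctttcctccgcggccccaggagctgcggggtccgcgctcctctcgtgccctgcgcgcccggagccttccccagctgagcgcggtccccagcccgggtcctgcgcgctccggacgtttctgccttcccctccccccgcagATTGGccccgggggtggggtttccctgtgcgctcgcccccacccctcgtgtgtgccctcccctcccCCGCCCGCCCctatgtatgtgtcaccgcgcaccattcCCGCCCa
Hapln3: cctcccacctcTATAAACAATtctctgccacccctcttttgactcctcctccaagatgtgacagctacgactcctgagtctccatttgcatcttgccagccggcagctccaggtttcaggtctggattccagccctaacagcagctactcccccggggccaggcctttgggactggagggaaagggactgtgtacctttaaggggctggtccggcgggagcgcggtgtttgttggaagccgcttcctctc
Vcan: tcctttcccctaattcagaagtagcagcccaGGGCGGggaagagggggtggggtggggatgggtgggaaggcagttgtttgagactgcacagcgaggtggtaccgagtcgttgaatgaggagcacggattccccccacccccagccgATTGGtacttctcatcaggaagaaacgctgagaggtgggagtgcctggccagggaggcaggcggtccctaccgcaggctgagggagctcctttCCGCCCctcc
Hapln1: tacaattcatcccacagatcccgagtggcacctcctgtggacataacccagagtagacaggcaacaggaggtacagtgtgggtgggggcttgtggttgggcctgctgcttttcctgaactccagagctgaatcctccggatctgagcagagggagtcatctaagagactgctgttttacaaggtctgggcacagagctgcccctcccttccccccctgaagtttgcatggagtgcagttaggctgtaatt

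The Acan and Vcan promoters each held GC boxes, 3 and 2 of them, and a CCAAT match at 110 and 103 bases before the start. A GC box was found in 32.9% and a CCAAT match in 34.5% of 27025 promoters of this length. Hapln3 held a TATAAA match and an overlapping SOX core, at 239 and 235 bases before the start. TATAAA and SOX core matches were in 13.0% and 9.65% of promoters. The HIF core, present in 16.6% of promoters, was not among these letters in the 4 windows, and Hapln1 matched none of the 5 motifs. A match is a description of letters and not a measured binding site.

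Has1 and Has3 lay below the control median on all 7 arrays. Has1 read 4.51 to 5.31 in WT and 4.43 to 4.92 in MCT4KO, and Has3 4.04 to 4.78 and 3.79 to 4.79, so that no level or change of either synthase can be given. Has2, the synthase that makes long hyaluronan chains during development and in cartilage, read 5.93, 6.76, 5.72 and 6.12 in WT 1 to 4, against 7.24, 7.13 and 5.87 in MCT4KO 1 to 3. MCT4KO 1 and MCT4KO 2 read above every WT animal and MCT4KO 3 lay below all but WT 3. The difference was 0.61 ± 0.346 (limma adjusted p = 0.49). Of 7 arrays, 5 were above their control median, and the values lay at the 44.2nd to 73.2nd percentile of negative controls. Without MCT4KO 3 the difference was 1.05 (adjusted p = 0.19, within a range of 0.18 to 0.80 over 17 alternatives). So close to background, neither difference gives a reliable size of change.

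Cd44, the hyaluronan receptor, read 11.39, 11.66, 11.76 and 12.15 in WT 1 to 4, against 12.22, 12.12 and 12.09 in MCT4KO 1 to 3. The knockouts lay within 0.13 of each other at the upper end of the WT values, and WT 4 fell between them. The difference was 0.40 ± 0.178 (95% interval 0.0019 to 0.80), with an unadjusted limma p of 0.049 and an adjusted p of 0.39. A change in the number of cells of a type and a change in RNA per cell cannot be told apart in bulk tissue.

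Snorc read 12.25, 11.86, 11.39 and 11.92 in WT 1 to 4, against 9.96, 10.34 and 10.68 in MCT4KO 1 to 3. The groups did not overlap: the lowest WT animal, WT 3, lay above the highest knockout, MCT4KO 3. The group means were 11.85 ± 0.353 (SD, n = 4) and 10.32 ± 0.363 (SD, n = 3). All 7 values were at or above the 94.8th percentile of negative controls. Snorc was the 1 gene of 10 with groups that did not overlap, and 12% of all genes had such groups (6.37% with MCT4KO lower and 5.66% with MCT4KO higher).

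The size of the Snorc difference held between -1.71 and -1.34 when any 1 animal was left out, but its call did not. The adjusted p was 0.0499 without WT 1 and 0.049 without WT 3. It was 0.069 and 0.076 without WT 2 and WT 4, and 0.089, 0.070 and 0.055 without MCT4KO 1, 2 and 3. Without WT 1 and WT 2, which had the highest marrow markers, the difference was -1.33 ± 0.259 (adjusted p = 0.16, within a range of 0.014 to 0.22 over 18 alternatives). The marrow markers were below 0 in difference for 9 of 9 genes, beside 9174 of all 19505 genes. WT 2 was the highest animal for all 9, so their signs are not separate observations. The part of the marrow markers in the Snorc value was not tested. No marker of cartilage or bone passed the test. Differences were above 0 for 6 of 8 cartilage and end plate markers. They were below 0 for the other 2, Cnmd (-0.58) and Col9a1 (-0.09, with no overlap of the groups). Col2a1, the main collagen of cartilage, had a difference of 1.32 ± 0.286 (limma adjusted p = 0.088), opposite in sign to Snorc, and the osteoblast gene Ibsp, which encodes bone sialoprotein, one of -1.94 ± 0.485 (adjusted p = 0.14), of the same sign, both with no overlap of the groups. Ibsp read 10.95, 9.89, 9.75 and 10.74 in WT 1 to 4, against 8.11, 9.65 and 7.43 in MCT4KO 1 to 3, and the other 4 of 5 osteoblast markers were at background in both groups. The part of these cells in the Snorc value was not tested.

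**Figure D2:**
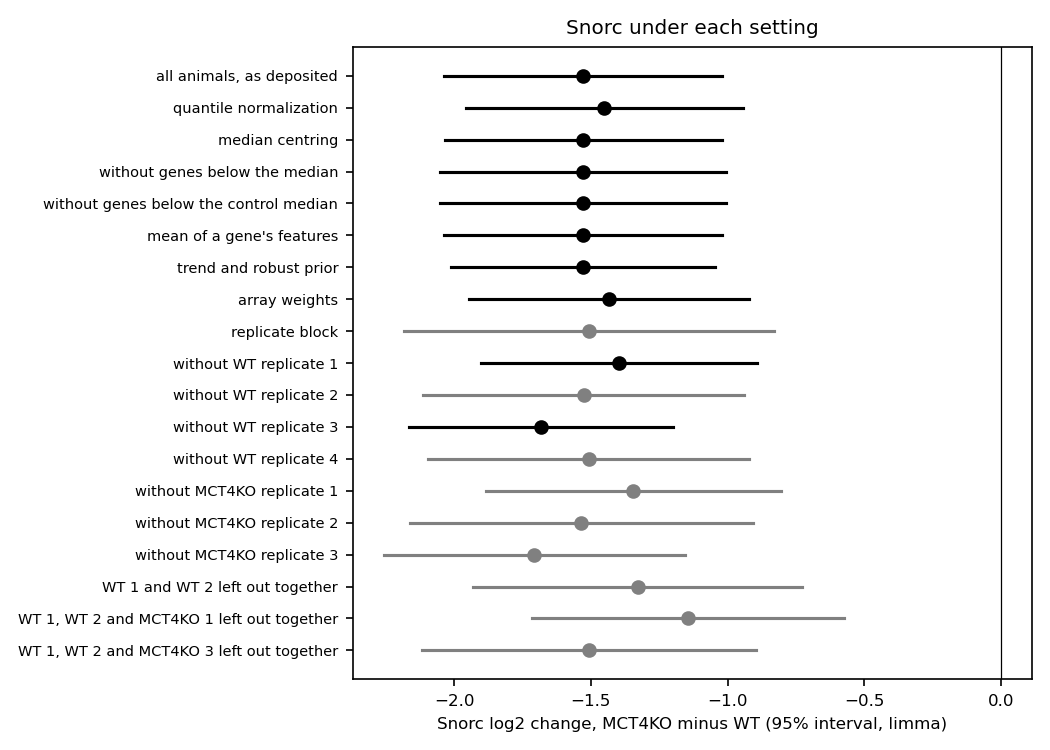
The log2 change of Snorc, MCT4KO minus WT (horizontal axis, with its 95% interval from limma), under each normalization, filter, model and set of animals (vertical axis), in black where the adjusted p was under 0.05 and grey otherwise. Every interval lies below 0, from -1.71 to -1.14 in its centre, while leaving out animals often ends the call.

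The 3 genes nearest to Snorc in pattern, by the root mean square difference of the 7 log2 values after each gene's own mean was subtracted, were As3mt (0.202), Bcam (0.203) and Cdc42ep4 (0.208), against 0.814 for Snorc around its own mean. As3mt encodes an arsenic methyltransferase, Bcam a laminin-binding adhesion molecule and Cdc42ep4 an effector of the GTPase CDC42. Their differences were -1.34 ± 0.225, -1.4 ± 0.159 and -1.39 ± 0.204. They were picked for this likeness among 19504 genes, so these differences lend Snorc no support.

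Prg4, which encodes lubricin, read 10.75, 12.84, 10.84 and 10.84 in WT 1 to 4, against 13.81, 11.54 and 8.94 in MCT4KO 1 to 3. WT 2 stood above the other WT animals. It also had the highest marrow markers, and the highest Vcan (12.15) and Comp (9.36) of the WT animals. MCT4KO 1, with a marrow marker mean of 5.91, was the highest in Prg4 and MCT4KO 3 the lowest of all. The part of marrow or other cells in the Prg4 values was not tested. The means were 11.32 ± 1.01 (SD, n = 4) and 11.43 ± 2.44 (SD, n = 3), and the difference of 0.11 ± 0.957 (limma adjusted p = 0.97; 95% interval -2.03 to 2.25) turned to -1.08 without MCT4KO 1 and was 1.35 without MCT4KO 3. Its within-group SD of 1.73 was exceeded by 0.159% of genes.

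Prg4 and Vcan had like profiles over the animals, as a description of 7 arrays. Of 19504 other genes, Vcan was the nearest to Prg4 in centred pattern (root mean square difference 0.532), and Prg4 was the 2nd nearest to Vcan after Sod3 (0.369), which encodes extracellular superoxide dismutase. Abi3bp, a matrix protein gene, came 3rd for both (0.579 from Vcan and 0.631 from Prg4), and Chil1, which encodes a secreted chitinase-like protein of cartilage, was 2nd for Prg4 (0.615). Around their own means the values of Vcan and Prg4 had root mean squares of 1.27 and 1.46. By the same measure Has2 was 53rd for Prg4 (1.06) and 328th for Vcan (1.07), while Acan was 4397th (1.23) and Hapln1 11612th (1.32) for Vcan. A gene with no variation would lie at 1.27 from Vcan and 1.46 from Prg4, so these ranks depend on spread as well as on pattern.

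Of the 8 cartilage and end plate markers, 6 were highest in MCT4KO 1, the animal highest in Vcan and Prg4, and 3 were lowest in MCT4KO 3. The share of all genes that were highest in MCT4KO 1 or lowest in MCT4KO 3 was not counted. Over all genes MCT4KO 1 had the lowest limma array weight, 0.638, against 0.922 to 1.30 for the other arrays. A low weight marks an array that departs more from its group across genes in general. The 6 include Matn3, which was at background in both groups, and the 3 include Col9a1, which hardly varied. Cnmd was at both ends, with 9.45 in MCT4KO 1 and 5.26 in MCT4KO 3, against 6.77 to 8.55 in WT. Comp, which encodes cartilage oligomeric matrix protein, followed both genes at each end, with 7.20, 9.36, 8.23 and 9.19 in WT, against 11.58, 8.04 and 6.35 in MCT4KO 1 to 3. Col10a1, the collagen of hypertrophic cartilage, read 7.02 to 8.50 in WT, against 12.11, 9.02 and 7.18 in MCT4KO 1 to 3, and so was not lowest in MCT4KO 3. Col2a1 read 7.58 to 8.30 in WT, against 10.08, 9.22 and 8.85 in MCT4KO 1 to 3, above every WT animal in MCT4KO 3 as well. Col11a1 in MCT4KO 3 (9.72) lay within its WT values of 9.38 to 9.90, and Col9a1 stayed between 5.84 and 6.06 on all arrays. These markers were chosen after their values were seen. The mean of all 8 cartilage and end plate markers was 6.72 to 7.29 in WT, with 8.64 in MCT4KO 1 and 6.42 in MCT4KO 3, and 2 of the 8 were at background in both groups. The mean of the 7 annulus fibrosus and tendon markers varied less, from 7.79 to 8.15 in WT and 7.86 to 8.16 in MCT4KO. Its single genes spanned 0.570 (Fmod) to 1.75 (Scx) log2 units over all arrays. Col1a2 read 7.26, 6.42 and 6.03 in MCT4KO 1 to 3, while Scx stayed between 6.67 and 6.77 there. The steady mean therefore does not show that annulus and tendon cells were a constant part. The part of these cells in the Vcan and Prg4 values was not tested.

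**Figure D3:**
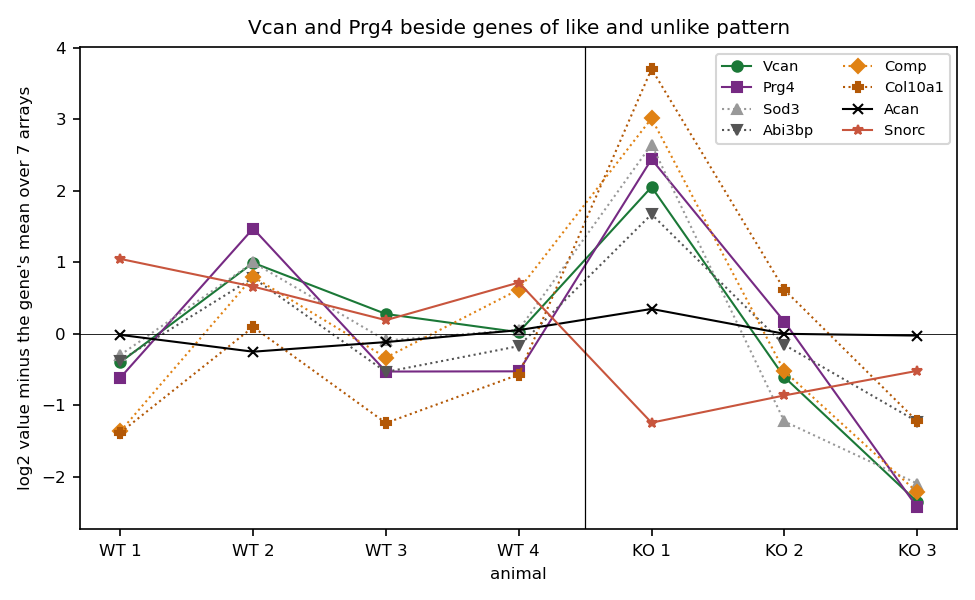
Log2 values minus each gene's mean over the 7 arrays (vertical axis) by animal (horizontal axis; KO is MCT4KO), with network genes as solid lines and other genes as dotted lines; lines join points for reading only, since animals have no order. Vcan, Prg4, Sod3, Abi3bp, Comp and Col10a1 share a peak in MCT4KO 1 and lie below their own means in MCT4KO 3, Acan stays near 0, and Snorc is below 0 in all 3 knockouts.

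**Figure D4:**
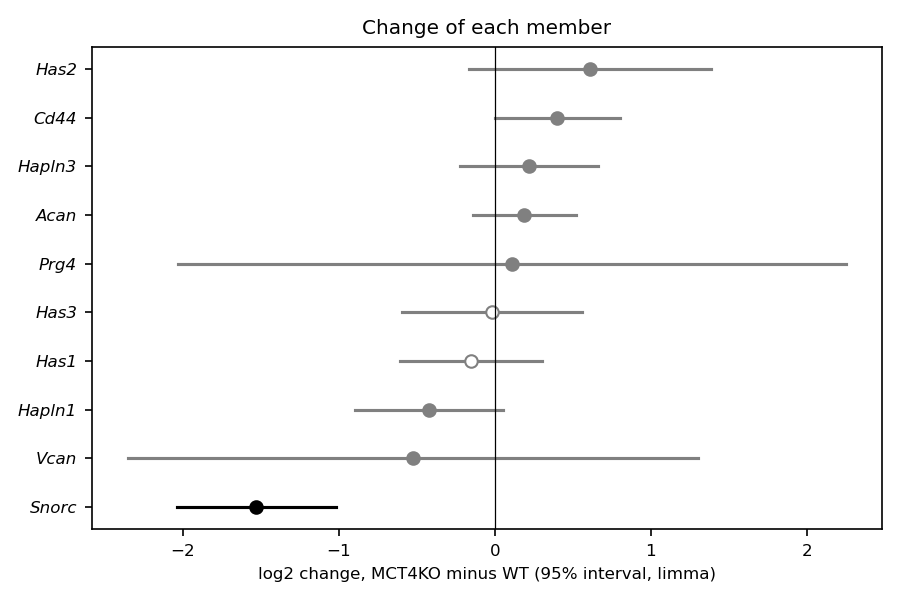
The log2 change of each of the 10 genes, MCT4KO minus WT (horizontal axis), with 95% intervals from limma; black marks an adjusted p under 0.05 and open points mark genes at background in both groups. Snorc is the gene whose interval lies far below 0, and the intervals of Vcan (-2.36 to 1.31) and Prg4 (-2.03 to 2.25) are the widest of the 10.

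Hapln1 spanned 1.06 log2 units, and its nearest genes were Snx32 (root mean square difference 0.091), Lman2l (0.100) and Stat2 (0.105), against 0.344 around its own mean. Their differences were -0.41, -0.37 and -0.33, with limma adjusted p from 0.43 to 0.58. Snx32 encodes a sorting nexin, Lman2l a lectin of the secretory pathway and Stat2 a transducer of interferon signals.

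Among 49 further genes of hyaluronan and proteoglycan biology, in 8 lists, 0 were called in either direction by limma over all genes. At an unadjusted p under 0.05 there were 4 higher and 4 lower, or 8 of 49, where 12.7% of all genes reached that level. Their median change was 0.01, beside 0.02 over all genes, and 20 of the 49 were at background in both groups. The median over the 10 network genes was 0.05.

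Fbln2 encodes fibulin-2, a matrix protein that binds the C-terminal lectin domains of aggrecan and versican, and it came nearest to a call. It read 9.30, 9.01, 9.78 and 9.83 in WT 1 to 4, against 10.53, 10.53 and 10.58 in MCT4KO 1 to 3, with no overlap. The difference was 1.06 ± 0.205 (limma adjusted p = 0.058), and the adjusted p was 0.043 without genes below the median, 0.045 without genes below the control median and 0.046 with a trended, robust variance prior, but 0.078 to 0.17 when 1 animal was left out. Tenascin-C (Tnc, -0.18) and fibulin-1 (Fbln1, 0.09), in the same list of 4, had adjusted p of 0.81 and 0.89.

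Adamts1, a protease that cuts versican and aggrecan, had the largest difference of the 49 genes. It read 12.01, 12.39, 12.30 and 11.91 in WT 1 to 4, against 8.94, 11.56 and 10.51 in MCT4KO 1 to 3. The groups did not overlap, but the knockouts lay up to 2.62 apart, and the difference of -1.82 ± 0.483 had an adjusted p of 0.16 and was -1.12 without MCT4KO 1. Adamts20 (-0.41 ± 0.210) and the inhibitor Timp3 (-0.20 ± 0.192) had adjusted p of 0.45 and 0.70. Of the 8 genes of this list, 4 lay at background in both groups.

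Of the 8 hyaluronan-binding and crosslinking genes, 0 were called; the inter-alpha-trypsin inhibitor heavy chains among them are transferred onto hyaluronan and crosslink it. The groups did not overlap for 2 of the 8, beside 12% of all genes (6.37% lower in MCT4KO). Itih5 read 10.95 to 11.31 in WT, against 10.18, 10.79 and 9.59 in MCT4KO 1 to 3 (-0.92 ± 0.248; adjusted p = 0.17). Itih2 read 9.24, 7.91, 8.04 and 8.55 in WT, against 7.66, 7.38 and 7.26 in MCT4KO (-0.997 ± 0.291; adjusted p = 0.20). The other measured members of this list of 8 had unadjusted p above 0.05, and 4 of the 8 were at background in both groups, Itih4 among them.

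Ugdh, which oxidises UDP-glucose to the UDP-glucuronic acid that every hyaluronan and chondroitin chain needs, read 13.15 to 13.73 in WT, against 13.77, 14.21 and 13.89 in MCT4KO 1 to 3, with no overlap (0.43 ± 0.178; adjusted p = 0.36). Uap1 (0.20 ± 0.129) and Gfpt2 (-0.36 ± 0.282), of the UDP-N-acetylglucosamine branch, had adjusted p of 0.54 and 0.62. All 7 genes of this supply list were above background on every array.

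Hyaluronan breakdown had 0 of 7 genes at an unadjusted p under 0.05, with Hexa at -0.28 ± 0.181, Hyal4 at 0.27 ± 0.183 and Gusb at -0.17 ± 0.129. Of the receptors and linkers, Layn, which encodes the hyaluronan receptor layilin, read 5.33 to 6.02 in WT, at background, and 6.73, 6.37 and 5.92 in MCT4KO 1 to 3 (adjusted p = 0.29), while moesin (Msn), which links CD44 to the actin cortex, had 0.25 ± 0.134 with no overlap of the groups (adjusted p = 0.48) and Stab1 was at background in both groups. All 4 other lectican and link protein genes, with the brain lecticans Bcan and Ncan and the link protein Hapln2 among them, were at background in both groups. Of the SOX factors that drive cartilage matrix genes, Sox6 had -0.43 ± 0.181, Sox9 0.33 ± 0.203 and Sox5 -0.15 ± 0.209, with adjusted p of 0.37, 0.52 and 0.80.

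**Figure D5:**
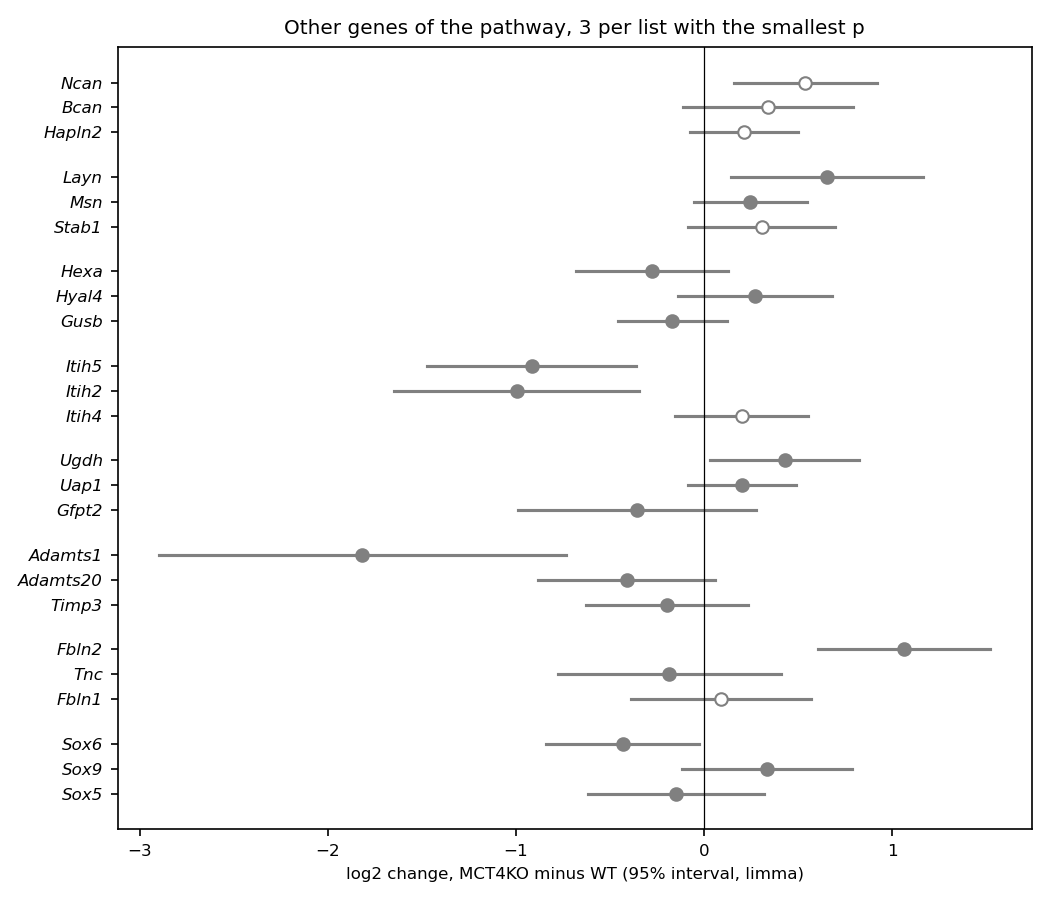
The log2 change, MCT4KO minus WT (horizontal axis), with 95% intervals from limma, of the 3 genes with the smallest p in each of 8 lists (groups of rows, from other lecticans and link proteins at the top to SOX factors at the bottom); open points mark genes at background in both groups. All points are grey because none reached an adjusted p under 0.05, and Adamts1 (-1.82) and Fbln2 (1.06) lie farthest from 0.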

How the data were processed

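The authors deposited 1 log2 value per array feature and animal. The submitters' processing notes name Affymetrix Expression Console 1.4.1. No source used here gives the background correction, normalization or summarisation. A log2 scale of the deposited values was inferred from their range; the highest, 19.41, exceeds 16, the log2 ceiling of a 16-bit scanner reading, so signals were rescaled before deposit. Arrays have no read depth. Precision is limited by the number of animals and, for genes near the negative controls, by background.

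Of 28846 features, 19572 carried 1 gene symbol, and all of their gene identifiers matched the RefSeq table of GRCm38.p6, which served for names and gene order. For the 55 genes with several features, the highest on average stood for the gene. Background in a group means no array above its own median of negative controls. MCT4KO was compared with WT by lmFit and eBayes of limma 3.58.1 under R 4.3.3, with no covariate, two-sided p-values and Benjamini-Hochberg adjustment over 19505 genes. The fit was tested on simulated data. The 2 ratios of members had exact permutation tests, with p the share of splits whose difference is at least as large in size.

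The genes and lists were chosen with earlier results of these data known. Named genes were all 10 members, in each list the 3 smallest p and every called gene, and the 3 nearest in pattern for members above background that spanned over 1 log2 unit. Sequences came from the RefSeq promoter table, which held 6 of the 10 genes. Alternatives covered normalization, filters, variance prior, array weights, animals left out and the animal number as a block.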

Additional observations from a re-analysis of the deposited data

Results flagged for a closer look

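Among 35 genes examined in the 4 WT animals, 4 had 1 animal far from the other 3, where chance flags about 1 in 20 groups. Prg4 in WT 2 read 12.84, with the other WT animals at 10.75 to 10.84. WT 2 also had the highest neutrophil and marrow markers, and the highest Vcan (12.15) of the WT animals. The part of marrow or other cells in the Prg4 value was not tested. Timp3 read 15.27 and Adamts20 9.93 in WT 2, below the other WT animals, the nearest of which read 15.72 and 10.28. Has3 read 4.78 in WT 4, against 4.13 in the next animal, with all 7 arrays below the control median.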

How the results depend on the processing

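The Snorc call held in 9 of 18 alternatives: all 5 changes of scaling, filter or feature choice, the trended prior, array weights, and leaving out WT 1 or WT 3. Its direction held in all 18 (-1.71 to -1.14). Leaving out animals could not turn this direction, since the groups did not overlap. The filters, feature choice and trended prior left the difference at -1.53, as they do not alter the Snorc values. The count of genes called, 115, was 15 to 64 when 1 animal was left out, 16 without WT 1 and WT 2, and 3 and 2 when MCT4KO 1 or MCT4KO 3 was left out with them, which was chosen after seeing the data. The count of members called was 0 to 1, 0, 0 and 0 in the same fits. Animal numbers were not taken to pair the animals, since deviations of same-numbered animals correlated at -0.13, 0.02 and 0.05 across genes. With the animal number as a replicate block, 6 genes and 0 members were called (Snorc -1.51, limma adjusted p = 0.14).

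The difference between the groups in the log2 ratio of Vcan to Acan ran from -1.77 to 0.24 when 1 animal was left out, in designs whose smallest possible p is 0.05 or 0.0667, and was -0.83 with the pairing by animal number. Differences that were not called turned sign in some fits. Over fits without 1 animal, Prg4 ran from -1.08 to 1.35, Vcan from -1.70 to 0.50, Has3 from -0.29 to 0.20, Has1 from -0.28 to 0.011, Tnc from -0.35 to 0.026 and Fbln1 from -0.13 to 0.28. With array weights Prg4 was -0.26 and Fbln1 -0.0017, with the replicate block Has1 was 0.011, Has3 0.16 and Prg4 -0.048, and without WT 1 and WT 2 Fbln1 was -0.10. Without these animals and MCT4KO 1, Prg4 was -0.60, and without them and MCT4KO 3, Vcan was 0.57 and Has3 0.0016. The cause was not tested.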
